A study of Mus musculus with 10 samples.

Results

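The early response of marrow cultures to adiponectin was read at 4, 10 and 24 h, where 1 adiponectin culture and 1 control culture were taken at each time. The labelled times and treatments choose these cultures, and they give 6 of the 10 arrays of the series, as 3 pairs; the other 4 arrays are the 72 and 120 h pairs. The cells were marrow flushed from the long bones of male Swiss mice, 4 to 6 weeks old, with no genetic change stated. Adiponectin cultures received recombinant mouse adiponectin at 5 µg/ml, controls received vehicle, and every culture, controls included, grew in serum with calcitriol, the hormone form of vitamin D, which supports osteoclast formation in such cultures. In its title the series speaks of lipopolysaccharide contamination, so the comparison asks which genes differed within a day of adding this adiponectin preparation. No labelled group received lipopolysaccharide alone, endotoxin-free adiponectin or an inhibitor of either, so the part of the hormone and that of a contaminant cannot be told apart here. Levels are described for all 19938 genes with a probe set of a single symbol, as log2 values in which a difference of 1 is a 2-fold change.

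Adiponectin is a hormone of fat cells that acts through the receptors encoded by Adipor1 and Adipor2 and through T-cadherin, and AMP-activated kinase and PPAR-alpha are its textbook effectors. Lipopolysaccharide is sensed by a complex of CD14, MD-2 (Ly96) and Toll-like receptor 4. The adaptor MyD88 then drives NF-kB and the inflammatory cytokines, and the adaptor TRIF (Ticam1) drives interferon regulatory factor 3 and interferon beta. Interferon beta in turn acts on neighbouring cells through JAK kinases and a transcription factor complex that holds STAT2 and IRF9 and binds the interferon-stimulated response element in the promoters of antiviral genes. In a marrow culture the main carriers of these sensors are macrophages, monocytes, dendritic cells and neutrophils.

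The 6 arrays had medians over genes from 8.27 (the 10 h control) to 8.48 (the 24 h control). By mean level over all 10 arrays of the series, the late pairs included, markers of many marrow lineages lay above the median of all genes. These were 13 of 14 measured for macrophages, 10 of 10 for monocytes, 13 of 13 for late neutrophil granules, 7 of 7 for megakaryocytes and 10 of 13 for B cells. For T and NK cells 4 of 19 did, and for osteoblasts 3 of 7. This count was not made on the 6 early arrays alone. The cultures of the series were thus mixtures, and in such bulk samples a change in the number of cells of a type and a change in RNA per cell cannot be told apart. Nothing in the labels says that each culture had its own mouse, and p-values here reflect the variation among these cultures alone, some of it perhaps technical. With 1 pair per time, each SD over the 3 pairs also holds any change of the difference with time.

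Within the first day, genes that were higher with adiponectin outnumbered those that were lower, and the larger changes were nearly all rises. By limma, 356 genes rose (1.79% of the 19938 tested) and 95 fell (0.476%) at a Benjamini-Hochberg adjusted p under 0.05. All 356 were higher and all 95 lower in 3 of 3 pairs, against 26.8% and 12.3% of all genes. Of the 356, 135 rose at least 2-fold, 35 at least 4-fold and 8 at least 8-fold, whereas 8 of the 95 fell at least 2-fold. The 3 adiponectin arrays lay wholly above the 3 control arrays for 337 of the genes that rose (16.2% of all genes did) and wholly below them for 83 of those that fell (4.57% of all genes). The balance of directions depended on scaling: with each array centred on its median 313 rose and 173 fell, so 64.4% of calls were rises in place of 78.9%. It also depended on single pairs, with 182 rises and 12 falls without the 24 h pair and 293 and 194 without the 10 h pair. Over all genes the median difference was 0.04. At an unadjusted limma p under 0.05, 12.7% of all genes were higher and 6.15% lower. These shares, and the 1.79% and 0.476% that were called, are the ones to set beside the counts of each list below. For a gene whose call ended in another fit, the adjusted p of that fit is given in parentheses: with a pair left out, without the block (log2 hours in place of the time points), after a second quantile normalization, with arrays centred on their medians or with a trended robust prior. In the reported fit the late pairs enter an early value only through the shared estimate of spread. Without the block they also enter the early difference itself.

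The rises were present at the first time measured. At 4 h, 145 genes were at least 2-fold higher (0.727% of all genes) and 24 at least 2-fold lower (0.12%). The corresponding counts were 178 (0.893%) and 26 (0.13%) at 10 h, and 170 (0.853%) and 45 (0.226%) at 24 h; each time has 1 array a group, so these counts have no test. Among the 356 genes that rose, the difference was largest at 4 h for 95, at 10 h for 129 and at 24 h for 132. Among the 95 that fell it was largest at 24 h for 63. The median difference of the genes that rose was 0.72 at 4 h, 0.89 at 10 h and 0.83 at 24 h, and that of the genes that fell was -0.55, -0.52 and -0.74. These medians describe genes chosen by the same arrays.

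Chemokines, interferon-induced genes, complement factor B and the itaconate-producing enzyme made the largest rises. Ccl5, a chemokine for T cells and monocytes, stood at 9.47, 9.52 and 10.20 in the control cultures and 13.23, 13.55 and 13.89 in the adiponectin cultures at 4, 10 and 24 h. The adiponectin arrays were 3.76, 4.04 and 3.69 above their controls, and the groups did not overlap. Its mean difference was 3.83 ± 0.19 (SD, n = 3 pairs; 14.2-fold; limma adjusted p = 1.15e-06). Cxcl10, a chemokine induced by interferons, stood at 9.68, 9.83 and 10.70 in the control cultures and 13.97, 12.69 and 13.16 in the adiponectin cultures at 4, 10 and 24 h, a mean rise of 3.20 ± 0.96 (adjusted p = 0.000731). Its difference was widest at 4 h (4.29) and narrowest at 24 h (2.46). Acod1, which makes itaconate in activated macrophages, had the same order, with differences of 3.67, 2.97 and 2.76 at the 3 times. Cfb, which encodes complement factor B, ran the other way: it stood at 9.27, 9.02 and 9.49 in the control cultures and 11.28, 12.52 and 13.41 in the adiponectin cultures at 4, 10 and 24 h, and its difference of 2.01 at 4 h was the smallest and that of 3.92 at 24 h the widest (mean 3.14 ± 1.002; adjusted p = 0.000785). Cxcl9, an interferon-gamma-induced chemokine, also had its widest difference at 24 h, where the adiponectin array was at 12.16 against 8.08 in the control (mean 2.94 ± 1.004; adjusted p = 0.00188). None of these 5 genes had overlapping groups.

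**Figure D1:**
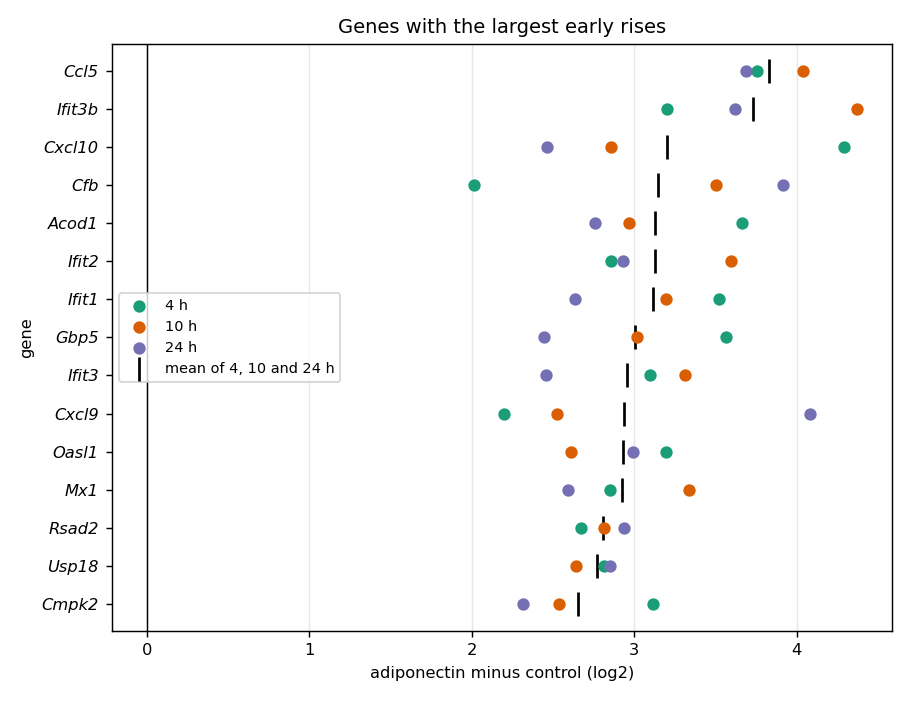
Adiponectin minus control difference (log2, x axis) of the 15 genes with the largest early rises (y axis), with 1 point for each of the 4, 10 and 24 h pairs and a bar at their mean. All points lie above 2, Cxcl10 has its largest value at 4 h, and Cfb and Cxcl9 have theirs at 24 h.

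The other 10 of the 15 largest rises were interferon-induced genes of antiviral and intracellular defence. Ifit3b, Ifit2, Ifit1 and Ifit3, which encode proteins that bind foreign RNA, rose by 3.73 ± 0.59, 3.13 ± 0.41, 3.12 ± 0.45 and 2.96 ± 0.45 (SD, n = 3 pairs). Ifit3 and Ifit3b are near-identical copies, so probes may not separate them. Ifit1 stood at 8.86, 8.69 and 9.35 in the control cultures and 12.38, 11.88 and 11.99 in the adiponectin cultures at 4, 10 and 24 h, with no overlap. Gbp5, a guanylate-binding protein that promotes inflammasome assembly, rose by 3.01 ± 0.56 and was highest at 4 h (10.77 against 7.20). Rsad2 (viperin, an enzyme that makes a chain-terminating nucleotide) stood at 10.60, 9.77 and 9.80 in the control cultures and 13.28, 12.58 and 12.74 in the adiponectin cultures at 4, 10 and 24 h, and its difference of 2.81 ± 0.13 was among the steadiest, as was that of Usp18, which removes ISG15 from proteins and restrains interferon receptor signalling (2.77 ± 0.11). Oasl1 (2.93 ± 0.30), Mx1 (2.93 ± 0.38) and Cmpk2 (2.66 ± 0.41) completed the list. The limma adjusted p of these 10 genes lay between 1.15e-05 and 0.000328.

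Promoters are shown for the 6 of these 15 genes whose window held the core letters of an interferon-stimulated response element, since interferon-response genes led the rises. The element was searched as GAAA, any 2 bases and GAAA. Of the kappa-B site, the NF-kB binding motif, only the form GGG, any 2 bases and TTTCC was searched. Both strands of RefSeq promoters (GRCm38.p6) were read from 250 bases before to 50 after the gene start. Of the 15 genes, 11 had a window among those read. Each sequence is the 250 bases before the start, on the strand of the gene, in lower case with the matches in capitals.
Cxcl10 (chr5:92348890-92349139, minus strand): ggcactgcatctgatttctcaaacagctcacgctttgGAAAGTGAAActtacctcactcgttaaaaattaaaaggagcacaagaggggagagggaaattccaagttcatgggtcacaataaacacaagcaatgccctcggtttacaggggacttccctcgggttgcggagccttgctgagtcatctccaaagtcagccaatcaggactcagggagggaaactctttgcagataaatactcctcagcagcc
Ifit1 (chr19:34640639-34640888, plus strand): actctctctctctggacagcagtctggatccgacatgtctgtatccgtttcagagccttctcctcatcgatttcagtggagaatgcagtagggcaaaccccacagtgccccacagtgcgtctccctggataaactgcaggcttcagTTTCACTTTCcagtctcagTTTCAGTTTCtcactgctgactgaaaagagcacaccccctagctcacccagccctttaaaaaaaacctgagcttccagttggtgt
Ifit3 (chr19:34583279-34583528, plus strand): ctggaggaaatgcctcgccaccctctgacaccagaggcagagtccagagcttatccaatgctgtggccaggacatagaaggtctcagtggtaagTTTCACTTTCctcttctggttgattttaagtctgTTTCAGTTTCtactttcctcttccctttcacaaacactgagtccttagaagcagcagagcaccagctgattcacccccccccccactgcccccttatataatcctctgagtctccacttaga
Ifit3b (chr19:34607707-34607956, plus strand): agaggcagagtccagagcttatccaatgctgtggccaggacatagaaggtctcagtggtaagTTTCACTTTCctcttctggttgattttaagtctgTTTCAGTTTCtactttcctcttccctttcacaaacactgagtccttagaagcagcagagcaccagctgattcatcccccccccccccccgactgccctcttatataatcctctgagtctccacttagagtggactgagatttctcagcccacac
Rsad2 (chr12:26456453-26456702, minus strand): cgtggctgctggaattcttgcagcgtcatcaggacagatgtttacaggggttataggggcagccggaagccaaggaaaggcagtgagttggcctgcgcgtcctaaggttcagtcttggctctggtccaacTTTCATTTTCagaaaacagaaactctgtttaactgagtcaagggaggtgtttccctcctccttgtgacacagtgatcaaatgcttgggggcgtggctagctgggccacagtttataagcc
Gbp5 (chr3:142496684-142496933, plus strand): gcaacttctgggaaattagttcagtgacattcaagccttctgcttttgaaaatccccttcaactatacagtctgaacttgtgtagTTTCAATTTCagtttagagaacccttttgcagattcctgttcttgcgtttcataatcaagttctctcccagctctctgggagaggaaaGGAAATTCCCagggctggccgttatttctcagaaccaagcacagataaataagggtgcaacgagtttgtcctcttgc
In Cxcl10 the response element began 213 bases before the start, in Rsad2 120, in Gbp5 165, in Ifit1 104 and 85, in Ifit3 156 and 122 and in Ifit3b 188 and 154. The kappa-B match in Gbp5 began 77 bases before the start and was the only match to those letters among the 11 windows. Other forms of the kappa-B site were not searched, so a window without a match may still hold 1. Over all measured genes with a window, 607 of 15614 (3.89%) held the response element and 286 (1.83%) the kappa-B letters. Among genes that rose, 57 of 283 (20.1%) held the former and 11 (3.89%) the latter, and among genes that fell 2 of 75 (2.67%) and 1 (1.33%). A match describes letters only; binding was not measured.

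Nearly the whole antiviral interferon list rose. Of 29 measured antiviral genes 27 rose and 0 fell, with a median early difference of 1.82 beside 0.04 for all genes. The median was 1.42, 2.01 and 1.81 at 4, 10 and 24 h. The members that did not pass were Isg20, a nuclease (0.89 ± 0.64; limma adjusted p = 0.0592), and Ifitm3, which blocks viral entry (0.31 ± 0.07; 0.107), named after their values were seen. Of the 14 interferon-induced GTPase genes in the list only 6 were measured, and all 6 rose. After Gbp5 came Gbp3 (2.06 ± 0.05), Gbp7 (1.83 ± 0.04), Iigp1 (1.79 ± 0.61), Irgm1 (1.58 ± 0.14) and Gbp4 (1.04 ± 0.28), whose call was lost without the block (0.201). Guanylate-binding genes are close paralogs, so their probes may share signal. Tetherin, encoded by Bst2 and also a plasmacytoid dendritic cell marker, rose by 1.22 ± 0.59, with differences of 0.58, 1.32 and 1.74. The call of Bst2 was lost when the 10 h cultures were dropped (0.0529) and when the 24 h cultures were dropped (0.0832).

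Part of the interferon signalling machinery rose as well. Of 12 measured IRF and STAT genes, 4 rose and 0 fell. Irf7, which amplifies interferon production, stood at 11.64, 11.70 and 11.76 in the control cultures and 12.92, 13.54 and 13.81 in the adiponectin cultures at 4, 10 and 24 h; the groups did not overlap, and the difference was 1.72 ± 0.40 (limma adjusted p = 0.00203). Stat2 rose by 1.52 ± 0.23 (0.000248), Irf1 by 0.92 ± 0.24 (0.00302) and Irf9, a DNA-binding partner of STAT2, by 0.74 ± 0.10 (0.00222). Irf3, which is activated by phosphorylation rather than by its transcript, was at -0.23 ± 0.16 (0.242; named after its values were seen). Of 10 interferon and receptor genes 1 rose, the kinase gene Jak2 (0.47 ± 0.18; 0.0395), whose call was lost when the 4 h cultures were dropped (0.121), when the 10 h cultures were dropped (0.064), when the 24 h cultures were dropped (0.0951), with either late pair left out (0.113), without the block (0.0755), after a second quantile normalization (0.0513) and with arrays centred on their medians (0.0634). Ifnb1, encoding interferon beta, stood at 6.45, 6.53 and 6.60 in the control cultures and 6.80, 6.60 and 6.75 in the adiponectin cultures at 4, 10 and 24 h. Its adiponectin arrays ran from 6.60 to 6.80 and its controls from 6.45 to 6.60, and the difference of 0.19 ± 0.15 did not pass (0.311). These values are below the array medians, and signal over background is not given for them. The receptor gene Ifngr1 was lower in 3 of 3 pairs (-0.43 ± 0.23; 0.0721), and Ifng, at 0.28 ± 0.26 (0.215), did not pass.

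Most genes rose in the list of nucleic acid sensors, which also holds nucleases and inflammasome genes, and fewer of the cell death genes did. Of the 12 measured genes of the sensor list 7 rose and 0 fell (median 0.82). These were the interferon-inducible DNA-binding family members Ifi205 (2.56 ± 0.31), Ifi209 (1.64 ± 0.45) and Ifi203 (0.99 ± 0.13), and Zbp1, a sensor that triggers necroptosis (2.11 ± 0.43). The others were the DNA exonuclease Trex1 (0.98 ± 0.09), Casp4, the mouse caspase-11 that binds cytosolic lipopolysaccharide (0.92 ± 0.19), and Casp1, the inflammasome caspase (0.69 ± 0.19). Casp4 stood at 9.70, 9.10 and 9.81 in control and 10.57, 10.23 and 10.58 in adiponectin cultures, higher in 3 of 3 pairs (limma adjusted p = 0.00129). Sting1, the adaptor of cytosolic DNA sensing, was lower in 3 of 3 pairs but did not pass (-0.38 ± 0.11; 0.0754; named after its values were seen). Of 13 cell death and survival genes 4 rose and 0 fell: Tnfsf10, the death ligand TRAIL (2.09 ± 0.21), Xaf1 (1.82 ± 0.30), Daxx (1.38 ± 0.08) and Mlkl, the executor of necroptosis (1.08 ± 0.25). Tnfsf10 stood at 8.10, 7.59 and 7.98 in control and 10.20, 9.47 and 10.27 in adiponectin cultures, without overlap (0.000207). The calls of 2 genes of the sensor list were lost. In adjusted p this was for Ifi209 (0.0626) without the 10 h pair, for Casp1 (0.103) and Ifi209 (0.149) without the 24 h pair and for Ifi209 (0.0794) without the block.

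Genes of antigen processing for MHC class I were higher too, and their median difference was smallest at 4 h. Of 12 measured genes 7 rose and 0 fell, and the list's median was 0.32, 0.61 and 0.84 at 4, 10 and 24 h. Psmb8, a catalytic subunit of the immunoproteasome, stood at 10.45, 10.24 and 10.64 in the control cultures and 10.76, 11.19 and 11.53 in the adiponectin cultures at 4, 10 and 24 h. Its 3 adiponectin values lay above all 3 controls, with a difference of 0.31 at 4 h and 0.89 at 24 h (mean 0.71 ± 0.35; limma adjusted p = 0.0348). Psmb10 (0.83 ± 0.44) and Psmb9 (0.58 ± 0.28), the other immunoproteasome subunits, the proteasome activator Psme2 (0.71 ± 0.35), the loading factor Tapbp (0.57 ± 0.20) and Nlrc5, the transactivator of class I genes (0.62 ± 0.21), rose as well. Tap1, a subunit of the peptide transporter, had a difference of about the same size at all 3 times (0.96, 1.03 and 1.16; mean 1.05 ± 0.10; 0.000736). H2-Q4, a non-classical class I gene with close paralogs, was at 0.48, 0.63 and 1.58 and did not pass (0.0522). The differences of Psmb8, Psmb10 and Psme2 were 0.57 to 0.73 without the 10 h or the 24 h pair. In adjusted p the call was lost for Psmb10 (0.0739), Psmb8 (0.0869), Psme2 (0.0783) and Tapbp (0.0529) without the 10 h pair, for Nlrc5 (0.131), Psmb10 (0.215), Psmb8 (0.267), Psmb9 (0.158), Psme2 (0.236) and Tapbp (0.146) without the 24 h pair, for Psmb10 (0.0588), Psmb8 (0.0629), Psmb9 (0.0856), Psme2 (0.0639) and Tapbp (0.0596) with either late pair left out, for Psmb8 (0.0794) and Psmb9 (0.229) without the block, for Psmb9 (0.0578) after a second quantile normalization and for Psmb9 (0.0576) with arrays centred on their medians.

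**Figure D2:**
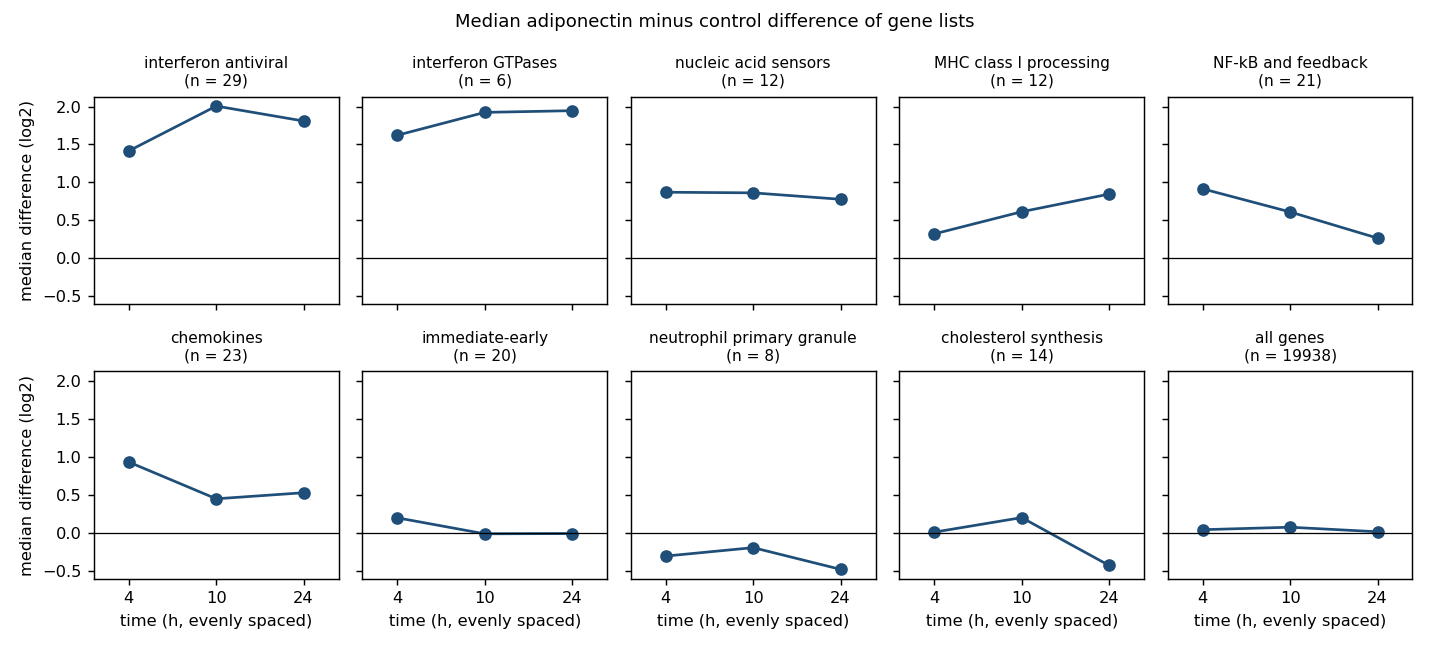
Median adiponectin minus control difference (log2, y axis) of 9 gene lists and of all genes at 4, 10 and 24 h (x axis, evenly spaced), with the number of measured genes over each panel and 1 pair of arrays per time. The NF-kB list goes from 0.91 at 4 h to 0.26 at 24 h, the MHC class I list from 0.32 to 0.84, and all genes stay at 0.01 to 0.07.

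Chemokine genes rose in part, and those that passed attract mononuclear cells and lymphocytes. Of 23 measured chemokine genes 10 rose and 0 fell (median 0.74 beside 0.04 for all genes). Besides Ccl5, Cxcl10 and Cxcl9 these were the monocyte attractants Ccl2 (1.16 ± 0.24) and Ccl7 (1.10 ± 0.38), the T cell attractants Ccl22 (1.14 ± 0.45) and Cxcl11 (0.74 ± 0.16), the inflammatory chemokines Ccl3 (0.74 ± 0.32) and Ccl4 (0.99 ± 0.62), and the B cell attractant Cxcl13 (1.04 ± 0.57). Ccl2 stood at 10.61, 10.62 and 11.38 in the control cultures and 11.70, 11.59 and 12.81 in the adiponectin cultures at 4, 10 and 24 h, without overlap (limma adjusted p = 0.000584). The neutrophil attractants Cxcl1, Cxcl2, Cxcl3 and Cxcl5 did not pass, with means of 0.33, 1.03, 0.71 and 0.14 (adjusted p from 0.112 to 0.468; named after their values were seen). Cxcl2 was at 1.92, 1.09 and 0.07 at 4, 10 and 24 h. Ccl8, another monocyte attractant, had the opposite order, 0.45, 1.09 and 3.09, and did not pass either (0.102). Cxcl12, the stromal factor that holds progenitors in the marrow, was lower in 3 of 3 pairs (-0.58 ± 0.39; 0.0719). In adjusted p, the call was lost for Ccl4 (0.0625), Cxcl11 (0.0522) and Cxcl13 (0.0502) without the 4 h pair, for Ccl22 (0.0563), Ccl3 (0.122), Ccl4 (0.213), Ccl7 (0.0538) and Cxcl11 (0.113) without the 24 h pair, for Ccl4 (0.0793) and Cxcl13 (0.0508) with either late pair left out, for Ccl3 (0.0524), Ccl4 (0.119), Ccl7 (0.134) and Cxcl13 (0.0597) without the block, for Ccl4 (0.0778) after a second quantile normalization and for Ccl4 (0.0571) with arrays centred on their medians.

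Among cytokines, 8 of 22 measured genes rose and 0 fell. Tnf stood at 10.32, 10.38 and 10.64 in the control cultures and 12.31, 11.22 and 11.26 in the adiponectin cultures at 4, 10 and 24 h. The 3 adiponectin arrays were above all controls, but the 4 h array was far above the other 2, and the mean of 1.15 ± 0.74 passed narrowly (limma adjusted p = 0.0385). Il1b, the inflammasome-processed cytokine, had a like order, 1.87, 0.80 and 0.86 (mean 1.18 ± 0.60; 0.0132). Il12b, the shared subunit of interleukins 12 and 23, was steadier at 1.23, 1.09 and 1.61 (mean 1.31 ± 0.27; 0.000439), and Il23a (0.51 ± 0.12), Il1a (0.69 ± 0.33), Il15, which supports NK and memory T cells (0.74 ± 0.23), and Tnfsf15 (0.85 ± 0.31) also rose. Il6 and Il10 were higher in 3 of 3 pairs without passing. Il6 differed by 1.53, 0.15 and 0.73 (0.105), and Il10, the anti-inflammatory cytokine, by 0.41, 0.59 and 1.49 (0.0716). The calls of cytokine genes were lost, in adjusted p, for Il1a (0.0644) and Il23a (0.0692) without the 4 h pair, for Tnf (0.0594) without the 10 h pair, for Il15 (0.0614), Il1a (0.162), Il1b (0.0614), Il23a (0.123), Tnf (0.071) and Tnfsf15 (0.0679) without the 24 h pair, for Il1a (0.0602), Il23a (0.0626) and Tnf (0.0769) with either late pair left out, for Il1a (0.228), Il1b (0.207) and Il23a (0.307) without the block and for Il1a (0.0568), Il23a (0.0673) and Tnf (0.0552) after a second quantile normalization.

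The list of NF-kB genes and their feedback inhibitors had its highest median difference at 4 h, with no test between times. Of 21 measured genes 7 rose and 0 fell, and the list's median was 0.91 at 4 h, 0.61 at 10 h and 0.26 at 24 h, against 0.04, 0.07 and 0.01 for all genes. Cd40, the co-stimulatory receptor, stood at 9.27, 9.23 and 9.62 in the control cultures and 11.33, 10.46 and 10.51 in the adiponectin cultures at 4, 10 and 24 h. Its groups did not overlap, with the widest gap at 4 h (mean 1.40 ± 0.60; limma adjusted p = 0.00579). Icam1, an adhesion molecule (1.37, 0.67 and 0.54), Tnfaip3, the A20 deubiquitinase that ends NF-kB signalling (0.86, 0.81 and 0.39), and Relb (0.88, 0.61 and 0.36) had the same order and rose on average by 0.86 ± 0.45, 0.68 ± 0.26 and 0.62 ± 0.26. Sod2, the mitochondrial superoxide dismutase (1.04 ± 0.19), Cflar, an inhibitor of caspase-8 (0.77 ± 0.15), and the kinase gene Ikbke (0.76 ± 0.07) rose with their widest difference at 10 h. Several members that did not pass had their widest difference at 4 h: Nfkbia, which encodes the inhibitor of NF-kB that NF-kB itself induces, was at 0.91, 0.30 and 0.12 (0.17), Nfkb2 at 1.12, 0.42 and -0.06 (0.212) and Traf1 at 1.42, 1.04 and 0.01 (0.112). Nfkbia and Nfkb2 were chosen after their values were seen. The AP-1, early growth response and dual-specificity phosphatase genes of the immediate-early list, whose transcripts usually peak within the first hour of a stimulus, held no call: 0 of 20 passed in either direction by limma (2 higher and 2 lower at an unadjusted p under 0.05). Egr2 had the widest difference in that list, -0.37, -0.53 and -1.46 (0.0721). Of the NF-kB calls, those lost were, in adjusted p, for Relb (0.0695) and Tnfaip3 (0.0577) without the 4 h pair, for Relb (0.0577) and Tnfaip3 (0.0532) without the 10 h pair, for Icam1 (0.0685) without the 24 h pair, for Icam1 (0.0534) and Relb (0.0635) with either late pair left out and for Relb (0.118) and Tnfaip3 (0.199) without the block.

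**Figure D3:**
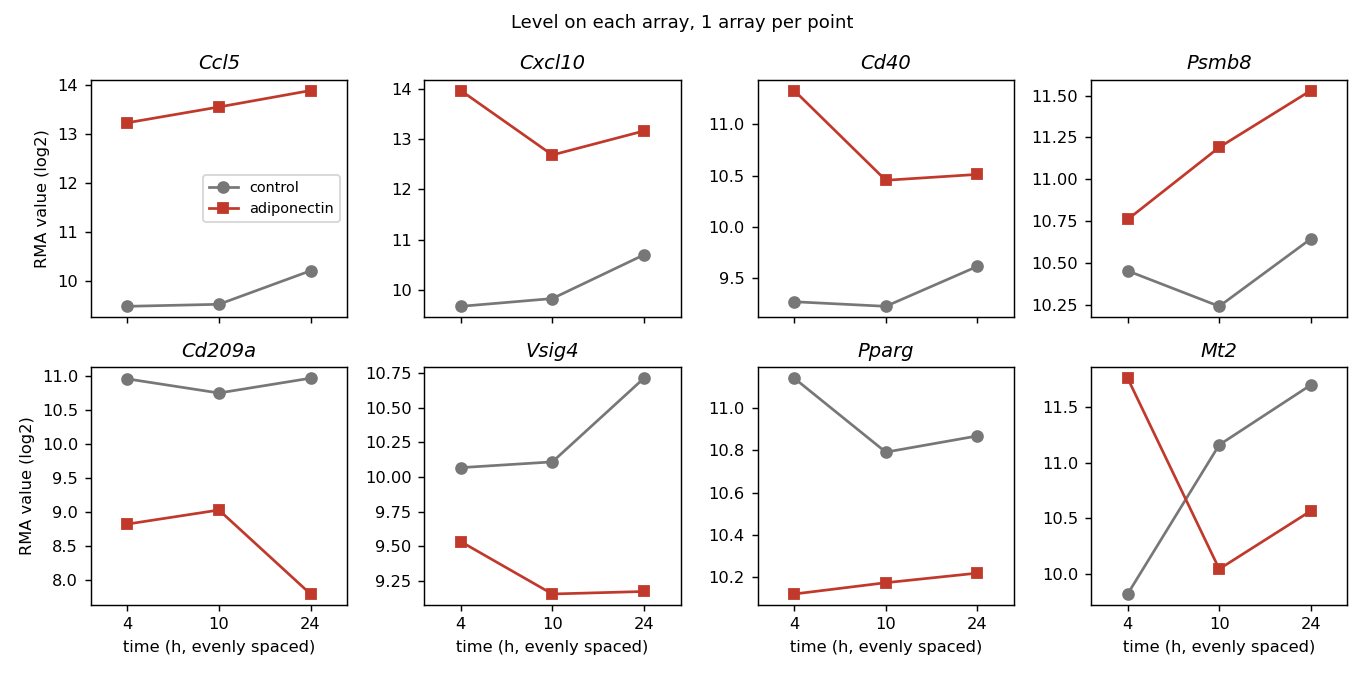
Level (log2 RMA value, y axis, with its own range in each panel) of 8 genes at 4, 10 and 24 h (x axis, evenly spaced), 1 array per point, control in grey circles and adiponectin in red squares. Ccl5, Cxcl10, Cd40 and Psmb8 are higher and Cd209a, Vsig4 and Pparg lower with adiponectin at all 3 times, while Mt2 is higher at 4 h and lower at 10 and 24 h.

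No gene of the receptor complex for lipopolysaccharide passed the test. Tlr4 stood at 9.89, 9.28 and 9.87 in the control cultures and 9.34, 9.40 and 9.75 in the adiponectin cultures at 4, 10 and 24 h, with differences of both signs (mean -0.18 ± 0.34; limma adjusted p = 0.432). Ly96, its MD-2 partner, was at 0.10 ± 0.17 (0.554). Cd14 stood at 11.05, 11.44 and 11.62 in the control cultures and 12.30, 11.59 and 11.73 in the adiponectin cultures at 4, 10 and 24 h, a difference of 1.25 at 4 h and of 0.15 and 0.11 later, which did not pass as a mean (0.225). Other sensors rose: of 22 measured Toll-like receptor pathway genes 5 rose and 0 fell, namely Tlr3, for double-stranded RNA (1.27 ± 0.27), Tlr9, for CpG DNA (1.10 ± 0.27), Tlr2 and its partner Tlr1, for lipopeptides (0.94 ± 0.47 and 0.61 ± 0.10), and Irak3, an inhibitory kinase (0.81 ± 0.07). Tlr2 was widest at 4 h (1.44, 0.88 and 0.51) and Tlr9 at 24 h (0.85, 1.06 and 1.38). The call of Tlr1 was lost when the 24 h cultures were dropped (0.0532).

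Some inhibitors of signalling and some co-stimulatory molecules rose, and none in these lists fell. Of 14 measured brakes on signalling 6 rose and 0 fell. Cd274, which encodes the checkpoint ligand PD-L1 and is in the co-stimulation list too, stood at 10.33, 10.27 and 10.36 in the control cultures and 12.16, 11.63 and 11.93 in the adiponectin cultures at 4, 10 and 24 h, without overlap (1.59 ± 0.24; limma adjusted p = 0.000126). Socs1, which blocks JAK kinases, rose by 1.12 ± 0.29, Fgl2 by 1.33 ± 0.50, Slamf8 by 0.73 ± 0.43 and Pdcd1lg2, the second PD-1 ligand, by 0.46 ± 0.13, beside Irak3. Of 12 co-stimulation genes 6 rose and 0 fell: Cd274, Cd40, the activation marker Cd69 (1.60 ± 0.71), Slamf7 (0.94 ± 0.14), Cd72 (0.68 ± 0.14) and Cd86, the CD28 ligand (0.61 ± 0.26). Cd69 stood at 8.02, 7.88 and 8.08 in control and 10.41, 8.87 and 9.51 in adiponectin cultures, highest at 4 h. Cd80, the other CD28 ligand, was at 0.14 ± 0.29 (0.514; named after its values were seen). The adjusted p exceeded 0.05 for Cd86 (0.0929) and Pdcd1lg2 (0.114) without the 4 h pair, for Cd86 (0.073) and Slamf8 (0.0794) without the 10 h pair, for Cd69 (0.0609), Cd72 (0.0976), Fgl2 (0.0515), Pdcd1lg2 (0.242) and Slamf8 (0.26) without the 24 h pair, for Cd86 (0.0646), Pdcd1lg2 (0.0996) and Slamf8 (0.0935) with either late pair left out, for Cd72 (0.137), Cd86 (0.412) and Fgl2 (0.0763) without the block, for Pdcd1lg2 (0.112) after a second quantile normalization and for Pdcd1lg2 (0.0824) with arrays centred on their medians.

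Enzymes of activated macrophages rose in part. Of 21 measured genes of macrophage metabolism 7 rose and 0 fell. After Acod1 (3.13 ± 0.48) these were Ch25h, which makes the antiviral oxysterol 25-hydroxycholesterol (2.74, 1.02 and 0.89), Nos2, the inducible nitric oxide synthase, Slc7a2, the arginine transporter that feeds it (1.16 ± 0.47), Gch1, which makes its cofactor (0.70 ± 0.20), Ptges, the prostaglandin E synthase (1.02 ± 0.47), and Sod2. Nos2 stood at 7.55, 7.53 and 7.25 in the control cultures and 9.01, 8.13 and 9.36 in the adiponectin cultures at 4, 10 and 24 h. Its adiponectin arrays were above all controls but uneven, lowest at 10 h (mean 1.39 ± 0.76; limma adjusted p = 0.017). Arg1, the arginase of alternatively activated macrophages, was at 0.29, -0.21 and 0.68 (0.477; named after its values were seen). Of 18 acute-phase and complement genes 3 rose and 1 fell: Cfb, the serum amyloid Saa3 and the complement protease C1ra (0.48 ± 0.21) were higher, and the acid glycoprotein Orm1 lower (-0.60 ± 0.26). Saa3 stood at 10.35, 10.78 and 11.15 in the control cultures and 12.76, 12.93 and 13.67 in the adiponectin cultures at 4, 10 and 24 h, a steady difference of 2.36 ± 0.19 (1.54e-05). Marco, a scavenger receptor for bacteria, rose by 1.93 ± 0.31 (0.000152) and Clec4e, the mycobacterial glycolipid receptor Mincle, by 1.26 ± 0.54 (0.0156). The 9 measured genes of the list of the nuclear receptor LXR-alpha and LXR targets had a median of -0.07. Of these, 4 were lower in 3 of 3 pairs (12.3% of all genes). At an unadjusted limma p under 0.05, 2 were higher and 2 lower. Nr1h3 (LXR-alpha) and its target Abca1 rose, by 0.60 ± 0.04 and 0.40 ± 0.01, 2 of 9 in that list. These calls were lost, in adjusted p, for Abca1 (0.102), C1ra (0.0814), Clec4e (0.0605), Nos2 (0.0594) and Orm1 (0.121) without the 4 h pair, for Abca1 (0.0701), Ch25h (0.0507) and Clec4e (0.0653) without the 10 h pair, for Abca1 (0.224), C1ra (0.251), Ch25h (0.0859), Nos2 (0.0956), Nr1h3 (0.0556) and Orm1 (0.286) without the 24 h pair, for Abca1 (0.116), C1ra (0.12), Ch25h (0.0761) and Orm1 (0.0669) with either late pair left out, for Abca1 (0.361), Ch25h (0.078), Nr1h3 (0.0643) and Orm1 (0.499) without the block, for C1ra (0.128) and Ch25h (0.0513) after a second quantile normalization, for Abca1 (0.0755) and C1ra (0.0894) with arrays centred on their medians and for Ch25h (0.0541) with a trended robust prior.

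The falls were smaller and, with 1 exception, under 3-fold. Cd209a, which encodes the pathogen-binding lectin DC-SIGN homologue of dendritic cells, stood at 10.96, 10.75 and 10.97 in the control cultures and 8.83, 9.03 and 7.80 in the adiponectin cultures at 4, 10 and 24 h. The adiponectin arrays were -2.13, -1.72 and -3.16 from their controls, the lowest at 24 h, and the mean was -2.34 ± 0.75 (limma adjusted p = 0.00101). Its neighbour in the lectin family, Cd209d, fell too (-1.03 ± 0.31; 0.00263), and since the family has close copies their probes may share signal. Mrc1, the macrophage mannose receptor, was at -0.53, -0.47 and -1.62 (0.0647), and Clec10a, a galactose lectin that had the second lowest difference at 4 h among genes above the median level, at -1.42, -0.14 and -0.80 (0.103); neither passed. Gas6, the ligand of the TAM receptors that mediate uptake of dying cells, stood at 10.76, 10.84 and 11.29 in the control cultures and 10.13, 9.43 and 9.62 in the adiponectin cultures at 4, 10 and 24 h and fell by 1.24 ± 0.54 without overlap (0.00703). Vsig4, the complement receptor of resident macrophages, stood at 10.07, 10.11 and 10.71 in the control cultures and 9.53, 9.16 and 9.17 in the adiponectin cultures at 4, 10 and 24 h (mean -1.01 ± 0.50; 0.0188). Both differences were smallest at 4 h. The lipid transporter Abca9 (-1.28 ± 0.47), Nxpe5 (-1.35 ± 0.27), Cmbl (-0.98 ± 0.16), the Fc receptor-like gene Fcrls (-0.96 ± 0.42), the lysosomal transporter Slc46a3 (-0.93 ± 0.42), Rcbtb2 (-0.93 ± 0.18), the ubiquitin ligase Wwp1 (-0.89 ± 0.12), the endosomal exchanger Slc9a9 (-0.89 ± 0.39), the co-stimulatory receptor Cd28 (-1.01 ± 0.14), Pdk4 and Atp6v0d2 completed the 15 largest. The adjusted p exceeded 0.05 for Vsig4 (0.0577) without the 10 h pair, for Fcrls (0.0609), Gas6 (0.0697), Slc46a3 (0.122), Slc9a9 (0.114) and Vsig4 (0.0978) without the 24 h pair and for Cd28 (0.0569), Fcrls (0.194), Gas6 (0.103), Nxpe5 (0.0808) and Vsig4 (0.147) without the block.

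**Figure D4:**
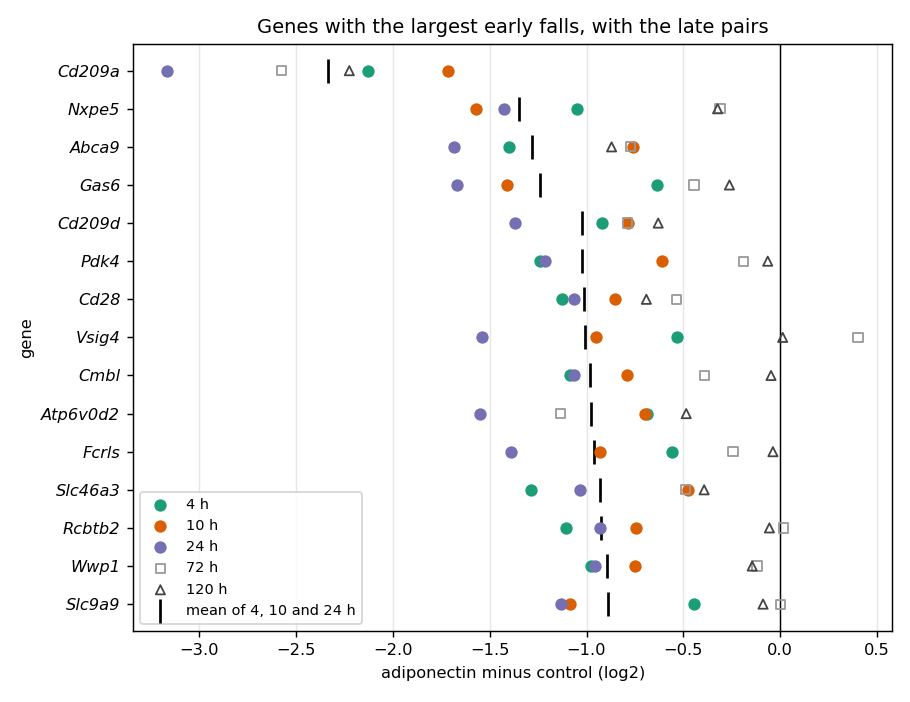
Adiponectin minus control difference (log2, x axis) of the 15 genes with the largest early falls (y axis), with filled points for the 4, 10 and 24 h pairs, a bar at their mean, and open symbols for the 72 and 120 h pairs. All filled points are below 0, while the open symbols of Rcbtb2 and Slc9a9 lie near 0, those of Vsig4 at 0.40 and 0.01, and those of Cd209a stay below -2.

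The adiponectin receptors did not pass the test, while 3 other genes of the list did. Adipor1 stood at 12.74, 12.73 and 12.68 in the control cultures and 12.62, 12.61 and 12.63 in the adiponectin cultures at 4, 10 and 24 h, a difference of -0.09 ± 0.05 (limma adjusted p = 0.528), Adipor2 was at -0.16 ± 0.04 (0.348) and Cdh13, which encodes T-cadherin, at 0.11 ± 0.18 (0.568). Of 16 measured genes of the receptors, AMP-activated kinase and PPAR-alpha targets, 1 rose and 2 fell (1.79% and 0.476% of all genes did), 7 were lower in 3 of 3 pairs (12.3% of all genes), and 1 was higher and 5 lower at an unadjusted p under 0.05. The fatty acid binding protein Fabp3 rose by 0.82 ± 0.34 (0.017). Pdk4, a kinase that restrains pyruvate oxidation and is a PPAR target, stood at 8.74, 8.68 and 9.81 in the control cultures and 7.50, 8.07 and 8.59 in the adiponectin cultures at 4, 10 and 24 h, a difference of -1.02 ± 0.36 (0.00411). Pparg, the fat cell and macrophage nuclear receptor, stood at 11.14, 10.79 and 10.87 in the control cultures and 10.12, 10.17 and 10.22 in the adiponectin cultures at 4, 10 and 24 h, the adiponectin arrays all below the controls (-0.76 ± 0.22; 0.0058). Ppara was at 0.15 ± 0.15 (0.364) and Cpt1a, its target in fatty acid oxidation, at 0.08 ± 0.21 (0.659), both named after their values were seen. Pparg was the 1 adipocyte marker of 9 to fall. Of these 9 markers, 4 were lower and 4 higher in 3 of 3 pairs (12.3% and 26.8% of all genes). At an unadjusted limma p under 0.05, 4 were lower and 2 higher. Fabp4 (-0.54 ± 0.31; 0.0543) and Lpl (-0.39 ± 0.31; 0.154) were among the lower ones, without passing. The summed adipocyte marker level, which the brightest markers dominate, was 13.76 to 13.97 in controls and 13.24 to 13.60 with adiponectin. Without Pparg the sum was 13.56 to 13.76 in controls and 13.05 to 13.46 with adiponectin, lower in 3 of 3 pairs; the part of adipocyte content in it was not tested. The calls of Fabp3 and Pdk4 were lost, in adjusted p, for Fabp3 (0.0631) without the 10 h pair, for Fabp3 (0.162) and Pdk4 (0.0609) without the 24 h pair and for Fabp3 (0.129) without the block.

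Few osteoclast genes passed within the first day, in both directions. Of 20 measured genes 1 rose and 2 fell (1.79% and 0.476% of all genes did), and the list's median was 0.03, 0.07 and -0.15 at 4, 10 and 24 h, and the sign of its median over the 3 times depended on the 24 h pair. Atp6v0d2, a proton pump subunit required for fusion of osteoclast precursors, stood at 12.25, 12.22 and 12.34 in the control cultures and 11.56, 11.52 and 10.79 in the adiponectin cultures at 4, 10 and 24 h. Its adiponectin arrays were all below the controls, the lowest at 24 h (mean -0.98 ± 0.49; limma adjusted p = 0.0305). Trem2, a lipid receptor of the osteoclast and macrophage lineage, fell by 0.55 ± 0.17 (0.0188), and the chloride transporter Clcn7 rose by 0.50 ± 0.10 (0.0256). Ctsk, the collagenolytic protease, was at -0.24, 0.43 and -0.70 (0.684), Nfatc1, the master regulator, at -0.12 ± 0.16 (0.536) and Acp5 at 0.30 ± 0.19 (0.182). Tnfsf11, which encodes RANKL, was at -0.10 ± 0.06 (0.485) and its decoy Tnfrsf11b at 0.10 ± 0.27 (0.641). Among 14 regulators of osteoclast formation 2 rose and 0 fell, where 1.79% and 0.476% of all genes did. The 2 were Il15 and the tumour necrosis factor receptor Tnfrsf1b (0.73 ± 0.25; 0.0105). By limma 0 of 8 vitamin D genes (1 higher and 4 lower at an unadjusted p under 0.05) and 0 of 9 reference genes (0 and 2) passed. Over all genes 12.7% were higher and 6.15% lower at that unadjusted p. Each osteoclast call was lost with a pair left out, as was that of Il15, in adjusted p by fit for Clcn7 (0.066) without the 10 h pair, for Atp6v0d2 (0.159), Clcn7 (0.163), Il15 (0.0614) and Trem2 (0.145) without the 24 h pair, for Clcn7 (0.0629) and Trem2 (0.0609) with either late pair left out and for Atp6v0d2 (0.119) and Clcn7 (0.478) without the block.

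Cell type markers moved little next to the interferon genes, and in 4 lists some members rose while others fell. Over all genes 1.79% rose and 0.476% fell. Among 14 macrophage markers Siglec1, an interferon-inducible lectin, rose (0.23, 0.98 and 1.15; limma adjusted p = 0.0424) and Vsig4 fell, and among 10 monocyte markers Ms4a6b rose (0.26, 1.22 and 1.33; 0.0379) and the fractalkine receptor Cx3cr1 fell (-0.66, -0.46 and -0.71; 0.0218). Among 15 dendritic cell markers Bst2 rose and Cd209a fell, while the class II genes H2-Aa (-0.33 ± 0.36), H2-Ab1 (-0.26 ± 0.28) and Cd74 (-0.09 ± 0.09) did not pass (adjusted p from 0.261 to 0.679; the last 2 named after their values were seen). Of 19 T and NK cell markers Klrk1, the NKG2D receptor, and Cd8b1 rose and Cd28 fell. Klrk1 stood at 6.56, 6.22 and 6.79 in the control cultures and 7.61, 8.49 and 9.47 in the adiponectin cultures at 4, 10 and 24 h, without overlap (2.003 ± 0.84; 0.00423), while the T cell receptor subunit Cd3e was at 0.17 ± 0.17 (0.348) and the NK receptor Ncr1 at -0.12 ± 0.41 (0.754), both named after their values were seen. Among 10 endothelial markers Kdr rose (0.74 ± 0.45; 0.0477). The summed marker level was 16.09 to 16.21 in controls and 16.10 to 16.38 with adiponectin for macrophages, 15.15 to 15.35 in controls and 15.27 to 15.46 with adiponectin for monocytes, 14.74 to 14.76 in controls and 14.66 to 14.72 with adiponectin for dendritic cells, 12.54 to 12.94 in controls and 12.47 to 12.71 with adiponectin for T and NK cells and 12.90 to 13.07 in controls and 12.95 to 13.19 with adiponectin for endothelium. Within pairs the sum was lower with adiponectin in 3 of 3 for dendritic cells, higher in 3 of 3 for endothelium and of both signs for the others. Over the markers that did not pass, the dendritic sum was 14.56 to 14.60 in controls and 14.35 to 14.55 with adiponectin, again lower in 3 of 3 pairs, while the endothelial sum was higher in 2 of 3. The part of cell content in these calls was not tested. No marker passed in the late neutrophil granule, erythroid, B cell, plasma cell, megakaryocyte, mast cell with basophil and eosinophil, progenitor, stromal or osteoblast lists. In each of these, 0 to 2 markers were higher and 0 to 3 lower at an unadjusted limma p under 0.05. Over all genes 12.7% were higher and 6.15% lower. The count of 3 lower came in the erythroid list, of 8 markers, and in the B cell list, of 13. Among these lists the summed level was lower in 3 of 3 pairs for megakaryocyte, erythroid and late neutrophil markers, and of both signs for the others. For megakaryocytes it was 15.28 to 15.41 in controls and 15.20 to 15.26 with adiponectin. For erythroid markers it was 12.24 to 13.53 and 11.62 to 13.37, with paired differences of -0.16, -0.15 and -0.62. For late neutrophil granules it was 16.67 to 16.87 and 16.61 to 16.74. The calls ended, in adjusted p, for Cx3cr1 (0.0745) without the 4 h pair, for Cd8b1 (0.0824), Kdr (0.0938), Ms4a6b (0.0944) and Siglec1 (0.0975) without the 10 h pair, for Cd8b1 (0.251), Cx3cr1 (0.186), Kdr (0.303), Ms4a6b (0.287) and Siglec1 (0.292) without the 24 h pair, for Cd8b1 (0.0984), Kdr (0.0962), Ms4a6b (0.0821) and Siglec1 (0.0962) with either late pair left out, for Cd8b1 (0.147), Cx3cr1 (0.185) and Ms4a6b (0.0524) without the block and for Cd8b1 (0.0694) after a second quantile normalization.

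Primary granule genes of neutrophil precursors were lower together. All 8 measured members were lower in 3 of 3 pairs (12.3% of all genes were), 2 fell and 0 rose, and the list's median was -0.31, -0.20 and -0.48 at 4, 10 and 24 h. Ms4a3 stood at 10.67, 10.20 and 10.09 in the control cultures and 10.08, 9.66 and 9.55 in the adiponectin cultures at 4, 10 and 24 h. The difference was close at the 3 times (-0.56 ± 0.02; limma adjusted p = 0.00926). Prtn3, which encodes proteinase 3, fell by 0.45 ± 0.13 (0.0348), and Elane, neutrophil elastase, was at -0.17, -0.51 and -0.75 without passing (0.152). The summed level of the 8 markers was 14.70 to 15.25 in controls and 14.19 to 15.01 with adiponectin, lower in 3 of 3 pairs although the ranges overlapped. In the late pairs the list's median was above 0, at 0.25. The 2 calls were lost, in adjusted p, for Prtn3 (0.0725) without the 10 h pair, for Ms4a3 (0.0742) and Prtn3 (0.226) without the 24 h pair, for Prtn3 (0.109) with either late pair left out and for Ms4a3 (0.828) and Prtn3 (0.895) without the block.

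The late pairs were also read for the genes called early. Of the 356 genes that rose, 319 (89.6%) were higher at both 72 and 120 h, against 27.7% of all genes, and of the 95 that fell, 63 (66.3%) were lower at both, against 37.2%. The median difference of the genes that rose was 0.56 at 72 h and 0.59 at 120 h, and that of the genes that fell was -0.10 and -0.15. These genes were chosen by their early differences, with a spread estimated from all 10 arrays, the late pairs included. Genes whose differences at 72 and 120 h were alike therefore passed more easily. Part of the excess over all genes in the shares at both late times may come from this choice, and its size was not tested. For the same reason the early and late medians of these genes are no test of a difference. The early minus late difference itself was tested in the same limma fit, and 0 of 19938 genes (0%) passed after adjustment; at an unadjusted p under 0.05, 1975 were higher and 708 lower in the early pairs, and the smallest adjusted p was 0.137. The genes with the smallest unadjusted p were Irak1bp1 (1.32), Mamdc2 (1.31), Lad1 (0.95) and Gbp2b (0.98), with a higher early difference, and Gzmd (-3.32), Saa3 (-1.31), Jchain (-1.41) and Gzmc (-2.26), with a lower one; all had adjusted p from 0.137 to 0.183, so none passed. Gzmd and Gzmc encode granzymes of cytotoxic lymphocytes. Gzmd differed by -0.84, -0.47 and -0.47 early and by 1.95 and 3.50 at 72 and 120 h. Without the 72 h pair 5 genes passed, all lower in the early pairs (Gzmd, Gzmf, Igkv9-120, Nkg7 and Slfn1), and without the 24 h pair Gzmb passed (-2.72; adjusted p = 0.0137).

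Late differences of single genes are set beside the early ones as a description. Cd209a was at -2.58 and -2.23 at 72 and 120 h, while Vsig4 was at 0.40 and 0.01, Rcbtb2 at 0.02 and -0.06 and Pdk4 at -0.19 and -0.06. Ccl5 was at 3.03 and 2.82 and Saa3, already high early, at 3.77 and 3.56. Gbp5 had an early mean of 3.01 and late differences of 1.07 and 1.499, and Cd40 an early mean of 1.40 and 0.06 and 0.15. Among lists, osteoclast genes had a late median of -0.46 beside an early median of -0.04, and T and NK cell markers 0.39 beside 0.14. For none of these genes did the early minus late difference pass after adjustment, and the late pairs are 2.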

How the data were processed

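RNA of each culture was hybridised to 1 Affymetrix whole-transcript mouse array. The values deposited by the authors are on a log2 scale, 1 per probe set and array; RMA (background correction, quantile normalization, median polish), Expression Console and Partek are named per the submitters' processing notes, with versions, order and genome build not given in the sources used here. Such normalization removes most of a shift shared by all transcripts, and signal over background is not given, so precision is limited by the number of arrays.

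Of 35556 probe sets, 21789 had 1 gene symbol in the platform annotation, 1621 several and 12146 none; only the first kind was named. Entrez IDs matched RefSeq (GRCm38.p6) for all but 91, with 0 symbols changed. For 999 genes with several probe sets, the probe set of highest mean was taken.

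The model was fitted in limma 3.58.1 (R 4.3.3; lmFit, eBayes, two-sided, Benjamini-Hochberg over 19938 genes, threshold 0.05). The fit held all 10 arrays, with the labelled time as a block of 5 levels and separate treatment terms for the 3 early and 2 late pairs (3 residual degrees of freedom), so the pairing comes from the time points. The fit was also run on simulated data with independent normal errors and the same shift in all 3 early pairs. Such data cannot show how the fit does where cultures are not independent or a difference changes with time. Alternatives were log2 hours in place of the block, the 6 early arrays, leaving out each pair, repeated quantile normalization, median centring, brighter genes only, a trended robust prior and the mean of a gene's probe sets. The pairs have no replicate at a time, so single times have no test.

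The 43 gene lists (621 genes, of which 63 were not measured and 4 matched an older symbol) and the rule for naming genes were chosen with earlier results of these data known, so a list's count is a description and no list was tested. A list's summed level is the log2 of the sum of its markers' linear values. Named were the 15 largest rises and falls with 3 of 3 pairs the same way; the 5 strongest rises and 3 strongest falls of each time among genes above the median level; the 4 genes each way with the smallest p for early minus late; from every list its 4 most different members, all called ones and those it is named for; and a short set of receptor, cytokine and bone genes.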

Additional observations from a re-analysis of the deposited data

How the results depend on the processing

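Genes named for early minus late alone are left out of the counts of named genes here. Of the other named genes, no called one changed sign under the alternatives run, and 0 passed with the other sign. Among the 102 of them that were not called, 16 changed sign in at least 1 alternative. The fit to the 6 early arrays alone called 233 rises and 43 falls. With log2 hours in place of the pairing by time point, that is with no block, 239 rose and 40 fell. With each array centred on its median 173 genes fell. Leaving out each pair in turn gave 182 to 358 rises, 12 to 194 falls and 0 to 5 genes for early minus late, and leaving out the 72 or the 120 h pair gave the same early result as the 6 early arrays alone. At an unadjusted p under 0.05, 2527 genes were higher and 1227 lower, while a second quantile normalization gave 1397 and 1605 and centring 1505 and 1878, so the larger direction there depended on the scaling. Of the 135 called genes in these counts, 74 kept their call in all settings run. Lad1, named for early minus late alone, was also called early. Its limma adjusted p was 0.0594 without the 4 h pair, 0.0513 with either late pair left out and 0.322 without the block. Among the 135, the settings that ended most calls were the fit without the 24 h pair (53), that without the block (35) and that to 6 arrays (28). The cause was not tested. With the scaling or a pair changed, 15 of 43 list medians changed sign, all between -0.09 and 0.08 in the reported fit, so none of these is given a direction. Marker sums without the called markers were chosen after seeing the data. The number of arrays, 1 per time and treatment, limits all values.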

Other observations

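Metallothionein genes, which bind zinc and copper, had differences whose sign changed after 4 h. Mt2, singled out after its values were seen, stood at 9.82, 11.16 and 11.70 in the control cultures and 11.76, 10.04 and 10.57 in the adiponectin cultures at 4, 10 and 24 h. It was higher with adiponectin at 4 h and lower at both later times, and its mean of -0.10 ± 1.77 did not pass (limma adjusted p = 0.928). Mt1 was at 0.22, -0.80 and -0.82 (0.227). Mt1 and Mt2 are close paralogs. Slc7a11, the cystine importer, had a like order (1.65, 1.04 and -0.23; 0.182). Of the 14 NRF2 and metallothionein genes measured, 0 passed in either direction by limma (4 higher and 1 lower at an unadjusted p under 0.05).

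Cholesterol synthesis genes had a median difference below 0 at 24 h alone. The list's median over 14 genes was 0.01, 0.20 and -0.43 at 4, 10 and 24 h, and 0 passed by limma as a mean of the 3 times (0 higher and 0 lower at an unadjusted p under 0.05). At 24 h Insig1, which holds the pathway's transcription factor in the endoplasmic reticulum, was at -0.73, Stard4 at -0.76 and Idi1 at -0.47; with 1 array a group at that time there is no test. The 19 cell cycle genes had a median of -0.23, 0.01 and -0.27 at these times, and 0 passed. Unadjusted, 0 were higher and 4 lower, against 12.7% and 6.15% of all genes. Of 11 measured iron genes 0 rose and 1 fell, where 1.79% and 0.476% of all genes did. It was the iron exporter Slc40a1 (-0.43, -0.51 and -0.67, limma adjusted p = 0.0163). Its call was lost when the 24 h cultures were dropped (0.132) and with either late pair left out (0.0514). The transferrin receptor Tfrc, at -0.29, -0.02 and -0.96, did not pass (0.23). Scarna17, a small Cajal body RNA, had the second lowest difference at 10 h among genes above the median level, at 0.58, -1.61 and -1.39 over the 3 times (0.261 by limma after adjustment).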
